A study of Caenorhabditis elegans with 6 samples.

Results

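Ligand-gated ion channel genes of the nematode Caenorhabditis elegans were examined by gene name, as every transcript record named acr, lgc, glr, nmr or ggr followed by a number in the RefSeq annotation. This gave 115 records of 86 genes, out of 50832 records in the count tables. The acr family, which encodes nicotinic acetylcholine receptor subunits, held 34 records of 19 genes. The lgc family of other ligand-gated channels held 68 records of 56 genes, the glr family of non-NMDA glutamate receptor subunits 10 records of 9 genes and the nmr family of NMDA glutamate receptor subunits 3 records of 2 genes. The annotation held 0 genes named ggr. It named 89 genes of the other 4 families, and acr-5, acr-8 and glr-8 had no matching record and were not analysed here.

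Whole-animal RNA came from starved L1 larvae, the first larval stage, in 2 groups of 3 libraries. The double mutant group, spr-5; met-2, carried the alleles by101 of spr-5 on chromosome I and n4256 of met-2 on chromosome III, and the reference strain was the wild type N2. SPR-5 removes methyl groups from histone H3 at lysine 4 and MET-2 adds them at lysine 9, and the libraries were made to compare gene expression in double mutant larvae with that of wild type. The count tables' headers carry the vector name L4440 in both groups. All animals were grown on HT115 bacteria at 20 °C, and each library pooled about 1000 to 1500 larvae that had hatched overnight in buffer, so the values are averages over whole larvae of every tissue.

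Acetylcholine, GABA, glutamate and biogenic amines open these channels within synapses and at muscle, and the ions that pass decide whether the receiving cell is excited or inhibited. The acr and lgc products belong to the Cys-loop superfamily, in which subunits with a shared fold assemble into pentamers around a pore. The glr and nmr products belong to the ionotropic glutamate receptors, which assemble as tetramers. In C. elegans acetylcholine drives the body wall muscle, GABA relaxes it, and the GLR-1 receptor acts in the interneurons that command forward and backward movement.

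The libraries held 17062557 to 25368364 counts. Of these, the channel records held 11224 to 19900 counts in double mutant libraries and 13718 to 15842 in N2 libraries, so they are a small share of each library. Of the mutated genes, spr-5 had higher counts in the double mutant (log2 fold change 1.19 ± 0.16, SE) and met-2 lower ones (-0.43 ± 0.11), and counts over whole transcripts do not check an allele. Germline markers differed widely between the groups: 8 of 8 tested rose, where 14.3% of all tested records did. The markers summed to 1408 to 1503 CPM (counts scaled to 1000000 per library after TMM normalisation) in double mutant libraries and 85.1 to 121 CPM in N2. Of the 8, deps-1 and pgl-3 had enough counts in every library only in the double mutant, where they are higher. Their direction was thus partly fixed by the count filter. The marker nos-2 was not tested, and him-3, with several records, was at 0. In whole-animal RNA, fewer cells of a type and less RNA per cell cannot be told apart. The labels do not state that the 3 libraries of each group are separate cultures. The p-values therefore reflect the spread among libraries, which may be technical.

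Few channel genes passed the test, and how many did depended on the fit. Of 64 channel records with enough counts to be tested, each from a different gene, 0 rose and 2 fell in edgeR's test (quasi-likelihood, adjusted p under 0.05), which is 3.13% of them, while 25.9% of all 14557 tested records were called (14.3% rising and 11.7% falling). Both were lgc genes. A fit with the replicate number as a block called 8 of the 64 channel records (2 rising and 6 falling) and 35.2% of all tested records. DESeq2 called 4 of the 64 and 29.4% of all, and limma voom 3 and 26.4%. With scaling by library size only, edgeR called 0 of the 64 and 25.5% of all. In edgeR's test without the block, an unadjusted p below 0.05 was found for 10 of the 64 channel records. Of these 7 were lower in the double mutant, and of all 14557 tested records 5539 had such a p. The fitted change was within 1.5-fold for 52 of the 64 (81.3%), against 63.9% of all tested records, and only lgc-18 was fitted past 2-fold. The libraries of the groups did not overlap for 15 of the 64 (23.4%), 4 above and 11 below N2, where the share over all tested records was 43.6%. A missed threshold does not show an equal level: the 95% interval of the fold change lay within 2-fold in both directions for 39 of the 64 (60.9%), against 48.6% of all tested records, and reached past it for the other 25. No test was made of whether the channel genes as a list differ from other genes.

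**Figure D1:**
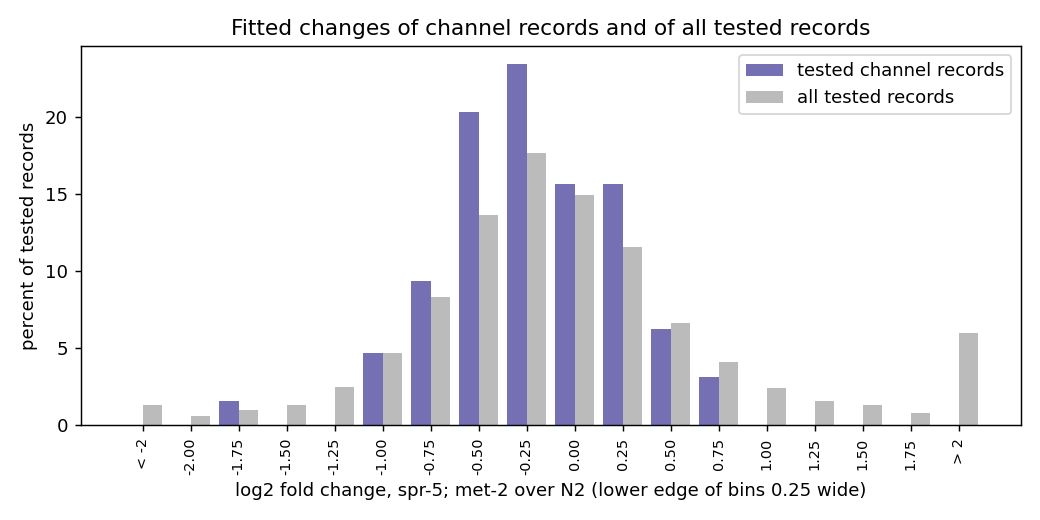
Share of tested records (vertical axis, percent) by log2 fold change of spr-5; met-2 over N2 (horizontal axis, bins 0.25 wide), for 64 channel records and for all 14557 tested records. The channel records lie between -1.54 and 0.96, while 5.95% of all tested records are above 2.

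The 64 tested records were chosen by counts alone, and 58 of them reached the count minimum in every library of both groups. For lgc-23, glr-2 and glr-10 only the double mutant libraries all reached it, and for lgc-13, lgc-18 and acr-24 only the N2 libraries did. The other 22 genes were not tested. Of these, 17 had between 1 and 64 counts over all 6 libraries, and 5 had 0 counts in every library. A count of 0 allows up to 3 counts per library, which is 0.107 to 0.165 CPM in double mutant and 0.148 to 0.165 CPM in N2 libraries (counting error only). Of the 5 genes at 0, acr-21, acr-23, lgc-29 and lgc-45 have several transcript records, and acr-20 has 1. Of 49 records from the 20 channel genes with several records, 31 were at 0, whereas 1 of 66 genes with a single record was, and how reads that fit several records were counted is not given in the sources used here. A level of 0 for a gene with several records therefore says nothing of its expression, and acr-23, which encodes a betaine receptor subunit, is among them. Low levels of such genes may likewise be incomplete, as for glr-2, nmr-2 and acr-12, each with 1 of 2 records at 0.

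The 2 genes that fell were lgc-55 and lgc-4. The gene lgc-55, on chromosome V, encodes a chloride channel opened by tyramine, through which the animal stops its head movements while backing away from touch. It was at 20.7, 16.8 and 21.6 CPM in double mutant replicates 1, 2 and 3, and at 31.7, 26.3 and 32.1 CPM in N2 replicates 1, 2 and 3. All double mutant libraries lay below all N2 libraries, and replicate 2 was the lowest of both groups. The means were 19.7 ± 2.58 CPM in the double mutant and 30.0 ± 3.24 CPM in N2 (SD, n = 3), with a fitted log2 fold change of -0.61 ± 0.16 (SE, 95% interval -0.97 to -0.24, edgeR adjusted p = 0.0261), or 0.657 times the N2 level.

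The gene lgc-4 on the X chromosome encodes another Cys-loop channel subunit. It was at 32.8, 22.4 and 30.7 CPM in the double mutant and at 49.02, 37.0 and 48.8 CPM in N2. Again no double mutant library reached the lowest N2 library, and replicate 2 was the lowest in each group. The means were 28.7 ± 5.50 CPM in the double mutant and 44.9 ± 6.87 CPM in N2 (SD, n = 3), with a fitted log2 fold change of -0.65 ± 0.19 (SE, 95% interval -1.08 to -0.21, edgeR adjusted p = 0.0384). Both calls depended on the libraries and the scaling. The lgc-55 call was lost without any one double mutant library (edgeR adjusted p = 0.0505, 0.0893 and 0.0674 without replicates 1, 2 and 3) and without N2 replicate 3 (0.0594), and the lgc-4 call without double mutant replicate 2 or 3 (0.100 and 0.0958) and without N2 replicate 1 or 3 (0.0766 and 0.0914). With scaling by library size only, under which the all-record median was 0.21 in place of -0.01, lgc-55 was at -0.38 and lgc-4 at -0.42, neither past the threshold (edgeR adjusted p = 0.168 and 0.166). In the authors' deposited table lgc-55 had an adjusted p of 0.00968 and lgc-4 one of 0.0168.

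**Figure D2:**
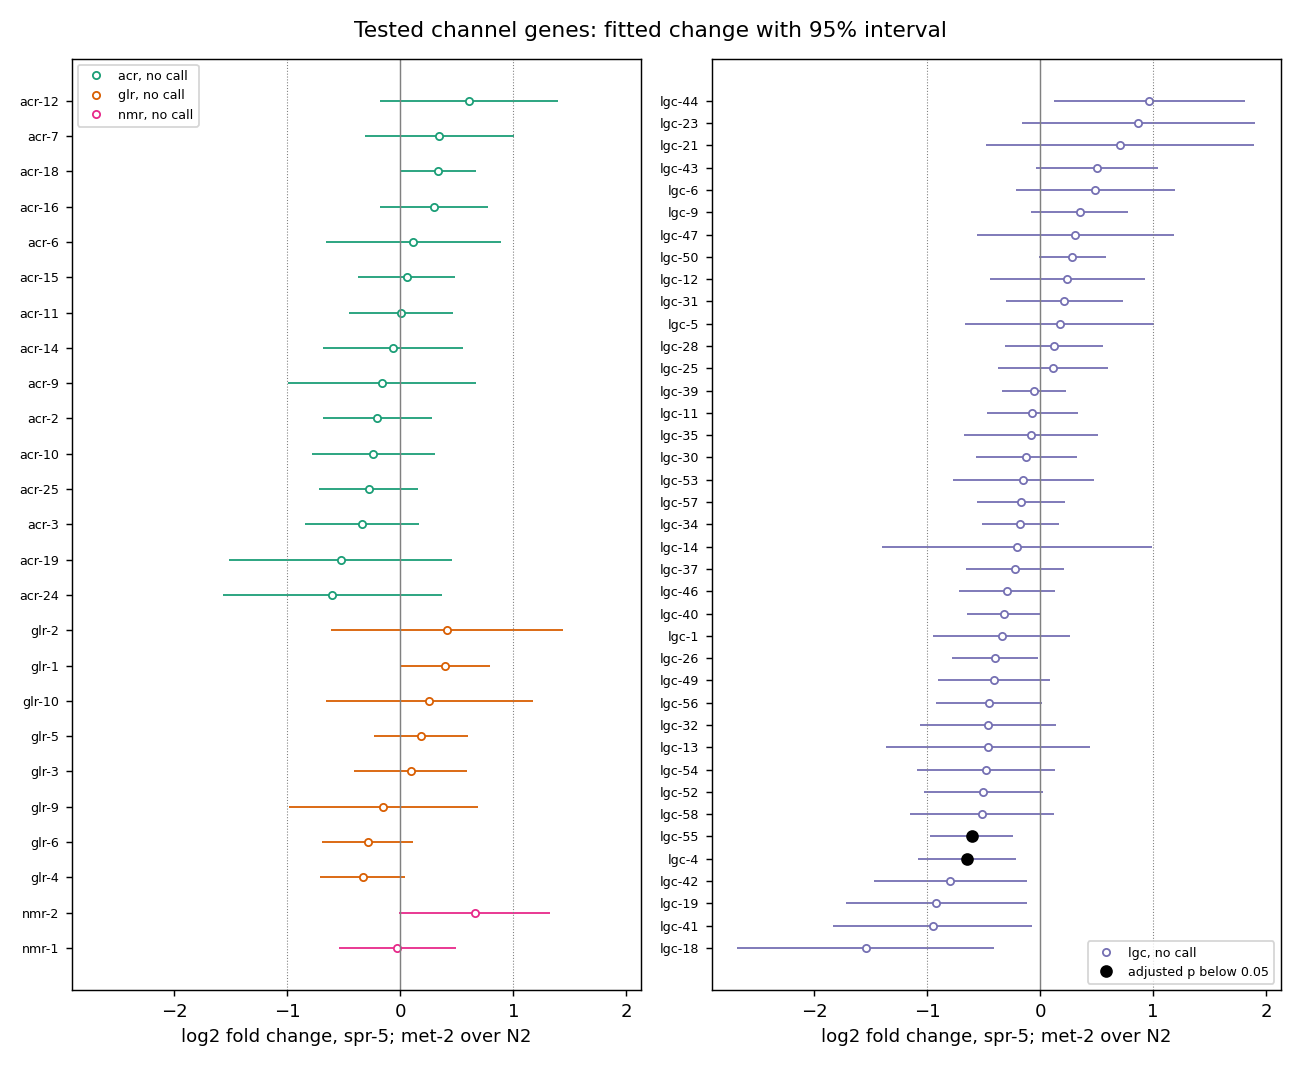
Log2 fold change of spr-5; met-2 over N2 (horizontal axis, points with 95% intervals; dotted lines mark 2-fold) for the 64 tested channel genes, acr, glr and nmr on the left and lgc on the right, ordered within a family. Filled black points mark lgc-55 and lgc-4, and all other genes are open, with intervals that widen for genes of low count such as lgc-18.

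Replicate numbers marked libraries that deviated together in both groups, and the fit with the replicate number as a block, which called the 8 channel records, called 35.2% of all tested records. SEs, intervals and p-values not named as from the block come from fits without it. They leave this pairing of libraries out. With the block lgc-44 (log2 fold change 1.04 ± 0.23, adjusted p = 0.00911) and lgc-43 (0.54 ± 0.18, adjusted p = 0.0461) rose, and lgc-4 (adjusted p = 0.00322), lgc-55 (0.00624), lgc-41 (-0.95 ± 0.19, adjusted p = 0.00655), lgc-42 (-0.77 ± 0.21, adjusted p = 0.0212), lgc-18 (-1.61 ± 0.49, adjusted p = 0.0353) and lgc-56 (-0.45 ± 0.15, adjusted p = 0.0427) fell in edgeR's test (SE). All 8 are lgc genes. One of the 6 that fell, lgc-18, had entered the test only through the N2 libraries, where it is higher, so its direction was partly fixed by the count filter. Among the others, lgc-43 was at 15.75, 15.6 and 18.1 CPM in the double mutant and 8.56, 10.7 and 15.66 CPM in N2, and lgc-56 at 14.04, 10.2 and 13.2 CPM in the double mutant and 18.995, 13.6 and 18.8 CPM in N2. Both overlapped between the groups through 1 N2 library, and neither passed without the block (edgeR adjusted p = 0.158 and 0.143), though lgc-43 was called without N2 replicate 3. The block called 0 acr, 0 glr and 0 nmr records, the same as the fit without it, with 18 channel records at an unadjusted p below 0.05 against 10. How many of all tested records lay below that level with the block was not counted.

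The remaining genes of the lgc family with an unadjusted p below 0.05 are named here after their values were seen, and none passed the adjusted threshold in edgeR's test with all 6 libraries, the count filter and no block. The gene lgc-44 was at 10.2, 16.4 and 15.9 CPM in the double mutant and at 4.45, 5.84 and 11.5 CPM in N2 (log2 fold change 0.96 ± 0.37, SE, edgeR adjusted p = 0.0925). Its groups overlapped, since N2 replicate 3 lay above double mutant replicate 1, and without N2 replicate 3 it was called (log2 fold change 1.44, edgeR adjusted p = 0.0166). DESeq2 (adjusted p = 0.0340) and the authors' deposited table (adjusted p = 0.0335) also called it as higher. The gene lgc-41, which encodes a channel opened by betaine, was at 6.97, 3.09 and 4.59 CPM in the double mutant and at 14.1, 6.58 and 7.75 CPM in N2 (log2 fold change -0.95 ± 0.38, edgeR adjusted p = 0.108). The level in replicate 1 was the highest of each group, and double mutant replicate 1 overlapped N2 replicate 2.

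The gene lgc-42 was at 4.85, 3.69 and 3.31 CPM in the double mutant and 9.55, 5.74 and 5.30 CPM in N2, with no overlap (log2 fold change -0.80 ± 0.29, edgeR adjusted p = 0.0836). The gene lgc-26 was at 9.71, 9.70 and 10.8 CPM in the double mutant and 12.7, 14.99 and 12.3 CPM in N2, again with no overlap (-0.40 ± 0.16, edgeR adjusted p = 0.113). Low counts stood behind the other 2. The gene lgc-19 was at 0.981, 0.716 and 1.10 CPM in the double mutant against 1.21, 1.93 and 2.20 CPM in N2 (-0.92 ± 0.35, edgeR adjusted p = 0.0902). The gene lgc-18 had 13, 3 and 11 counts in the double mutant and 17, 22 and 32 counts in N2 (log2 fold change -1.54 ± 0.49, 95% interval -2.68 to -0.41, edgeR adjusted p = 0.0527). It was called as lower by DESeq2 (adjusted p = 0.0464), by limma voom (0.0438) and, in edgeR, without double mutant replicate 1 (0.0343), and lgc-19 was called without N2 replicate 1 (0.0393). The gene lgc-18 reached the count minimum only in N2, the group where it is higher. Its calls as lower in these fits are therefore partly fixed by that filter and support nothing further. With no count filter edgeR also called lgc-18 as lower, from the same low counts.

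**Figure D3:**
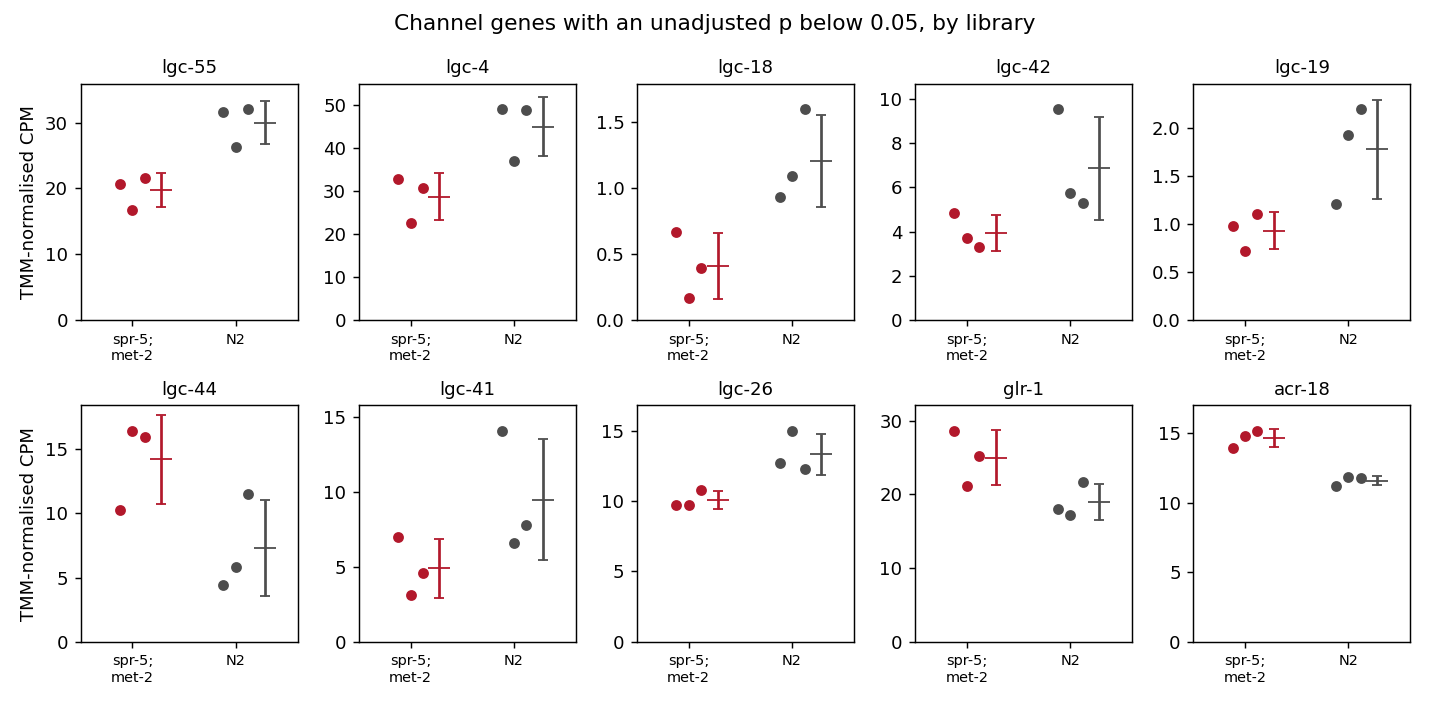
TMM-normalised CPM (vertical axes, from 0) in each library for the 10 channel genes with an unadjusted p below 0.05, with spr-5; met-2 on the left and N2 on the right of each panel; the bars give the mean and SD of 3 libraries. Groups are apart for lgc-55, lgc-4, lgc-18, lgc-42, lgc-19, lgc-26 and acr-18, and overlap for lgc-44, lgc-41 and glr-1.

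The gene lgc-18 lies near the end of a run of lgc genes on the X chromosome, in which lgc-13 to lgc-17 are next to each other in the order of protein-coding genes and lgc-18 follows after 1 other gene. Each of these 6 genes had a lower mean CPM in the double mutant, and together they held 3.36, 3.20 and 2.95 CPM in the double mutant and 4.996, 3.66 and 5.90 CPM in N2. The run was chosen after its values were seen and its sum was not tested. Of its members 3 were tested, with log2 fold changes of -0.46 ± 0.39 for lgc-13, -0.20 ± 0.52 for lgc-14 and the value given above for lgc-18. Both lgc-13 and lgc-18 reached the count minimum in every library only in N2, where they are higher, so their direction was partly fixed by the filter. Counts were low, as for lgc-16 with 6 in the double mutant and 9 in N2. Reads that fit several of these neighbouring paralogs may be uncertain. Over the whole X chromosome the 20 tested channel genes had a median log2 fold change of -0.22, with 0 rising and 1 falling, where the 1822 tested X-linked records had a median of -0.17, with 91 rising and 262 falling.

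The most abundant lgc genes, and several with a known ligand, gave values with no call. The gene with the highest mean count, lgc-39, was at 58.0, 48.3 and 52.3 CPM in the double mutant and 55.2, 51.8 and 57.9 CPM in N2, with overlapping groups and a log2 fold change of -0.06 ± 0.12 (SE, 95% interval -0.34 to 0.22). The next, lgc-34, was at 46.4, 39.9 and 38.8 CPM in the double mutant and 40.6, 46.9 and 53.8 CPM in N2 (-0.18 ± 0.15, edgeR adjusted p = 0.423). Both had a positive sign with library size only, a scaling that raised the all-record median by more than the size of these values. The gene lgc-50, for a cation channel opened by serotonin, was at 40.4, 39.3 and 43.6 CPM in the double mutant and 32.6, 31.4 and 37.5 CPM in N2, a difference without overlap that did not pass (0.28 ± 0.13, edgeR adjusted p = 0.145).

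The gene lgc-40, for a channel opened by serotonin, choline and acetylcholine, was at 30.4 ± 4.02 CPM in the double mutant and 37.97 ± 1.97 CPM in N2 (SD, n = 3), below N2 in all libraries (edgeR adjusted p = 0.138). The gene lgc-46, for a chloride channel opened by acetylcholine, was at 30.2 ± 6.88 CPM in the double mutant and 37.0 ± 3.23 CPM in N2 (edgeR adjusted p = 0.287). The gene lgc-53, for a chloride channel opened by dopamine, was at 2.90 ± 0.816 CPM in the double mutant and 3.22 ± 0.306 CPM in N2, and lgc-35, for a cation channel opened by GABA, at 4.33 ± 1.25 CPM in the double mutant and 4.57 ± 0.293 CPM in N2. The intervals of both, -0.78 to 0.48 for lgc-53 and -0.67 to 0.51 for lgc-35 on the log2 scale, lay within 2-fold.

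Of 39 tested lgc records, 13 had a positive and 26 a negative log2 fold change, with a median of -0.18, beside a median of -0.01 for all tested records. With library size only the lgc median was 0.03, when that of all records was 0.21. The fitted changes ran from -1.54 for lgc-18 to 0.96 for lgc-44. Summed over the family, lgc records held 508, 426 and 480 CPM in the double mutant and 535, 485 and 558 CPM in N2, a ratio of the means of 0.896. The summed ranges overlapped, with double mutant replicate 1 above N2 replicate 2.

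No acr gene passed the test. Of 19 acr genes 15 were tested, and the 95% interval lay within 2-fold for 11 of them. Of the 15 tested acr records, 0 rose and 0 fell in edgeR's test (0 with DESeq2 and with limma voom), with 1 at an unadjusted p below 0.05 and a median log2 fold change of -0.07 (0.16 with library size only). The one was acr-18, a subunit gene of the DEG-3 group, at 13.9, 14.8 and 15.2 CPM in the double mutant and 11.2, 11.8 and 11.8 CPM in N2. The groups were apart and each narrow, but the difference of 0.34 ± 0.15 on the log2 scale did not pass (SE, edgeR adjusted p = 0.130). The genes acr-2 and acr-3, adjacent on the X chromosome, encode subunits of a cholinergic receptor of motor neurons. The level of acr-2 was 15.03, 9.42 and 11.9 CPM in the double mutant and 14.99, 12.2 and 14.7 CPM in N2 (log2 fold change -0.20 ± 0.21, edgeR adjusted p = 0.515), and acr-3 was at -0.34 ± 0.22 (edgeR adjusted p = 0.299).

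The levamisole-insensitive receptor of body wall muscle is formed by ACR-16. Its gene was at 12.4, 8.38 and 11.2 CPM in the double mutant and 8.89, 7.57 and 9.55 CPM in N2, with overlap between the groups (log2 fold change 0.30 ± 0.21, edgeR adjusted p = 0.334). Its neighbour acr-15 was at 0.06 ± 0.19. The gene acr-25 was at 9.86, 12.3 and 12.7 CPM in the double mutant, below the 12.8, 12.8 and 16.8 CPM of N2 by a small gap (-0.28 ± 0.19, edgeR adjusted p = 0.323). The motor neuron subunit gene acr-12 had the highest fitted value of the family, 0.61 ± 0.34, from 1.65 ± 0.568 CPM in the double mutant and 1.08 ± 0.135 CPM in N2 (SD, n = 3, edgeR adjusted p = 0.233), and its interval, -0.18 to 1.40, reaches past 2-fold. The acr-named genes were also counted by subunit group. Called were 0 of 9 tested acr genes of the ACR-16 group, 0 of 2 of the UNC-29 group and 0 of 2 of the DEG-3 group. Of the UNC-38 and ACR-8 groups 0 of 1 tested acr gene each was called. Channel genes with other names were not counted in these groups. Summed over the family, acr records held 100.4, 86.8 and 100.5 CPM in the double mutant and 94.3, 86.2 and 105 CPM in N2, ranges that lie within one another.

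No glr gene passed the test either. Of 9 glr genes 8 were tested, and the 95% interval lay within 2-fold for 6 of them. Of the 8 tested glr records, 0 rose and 0 fell in edgeR's test (0 with DESeq2 and with limma voom), with 1 at an unadjusted p below 0.05, 5 positive values and a median log2 fold change of 0.14. Among the positive ones, glr-2 and glr-10 reached the count minimum in every library only in the double mutant, where they are higher. With a filter of at least 1 CPM in 3 libraries, 6 glr records were tested and the median was -0.03. The gene glr-1, for the AMPA-type subunit of command interneurons, was at 28.7, 21.2 and 25.2 CPM in the double mutant and 18.01, 17.2 and 21.7 CPM in N2. Double mutant replicate 2 lay below N2 replicate 3, so the groups overlapped, and the log2 fold change of 0.40 ± 0.17 did not pass (SE, edgeR adjusted p = 0.126). The gene glr-2, whose product forms a receptor with GLR-1, was under 1 CPM in every library and its 95% interval of -0.61 to 1.44 reaches past 2-fold. Of the 2 glr-2 records 1 was at 0, so this low level may be incomplete.

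The most abundant glr gene was glr-5, at 54.1, 34.8 and 42.8 CPM in the double mutant and 41.998, 34.4 and 39.7 CPM in N2 (log2 fold change 0.18 ± 0.18, edgeR adjusted p = 0.505). The highest and the second highest of these values were both double mutant ones, and the groups overlapped. The gene glr-4 was at 20.3, 18.3 and 21.5 CPM in the double mutant, below N2 at 23.9, 22.0 and 29.8 CPM (-0.33 ± 0.16, edgeR adjusted p = 0.172). The gene glr-3, for a kainate-type subunit that also takes part in sensing cold, was at 0.09 ± 0.22 and glr-6 at -0.29 ± 0.18. The gene glr-7 had 0 counts in the double mutant and 2 in N2, and was not tested. Summed over the family, glr records held 136, 97.1 and 119 CPM in the double mutant and 114.8, 106 and 122 CPM in N2.

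No NMDA-type gene passed the test. The gene nmr-1 was at 5.73, 4.08 and 4.09 CPM in the double mutant and 4.94, 4.75 and 4.45 CPM in N2, with a fitted log2 fold change of -0.03 ± 0.22 (SE, 95% interval -0.54 to 0.49), whose sign turned with library size only. The gene nmr-2 was at 7.44, 4.24 and 4.12 CPM in the double mutant and 3.73, 3.27 and 3.001 CPM in N2. All its double mutant libraries lay above N2, with replicate 1 far above the other two, and the log2 fold change of 0.66 ± 0.29 did not pass (edgeR adjusted p = 0.137). Without double mutant replicate 1 it was 0.33. Of the 2 tested nmr records 0 had an unadjusted p below 0.05, and 0 were called by DESeq2 or limma voom.

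**Figure D4:**
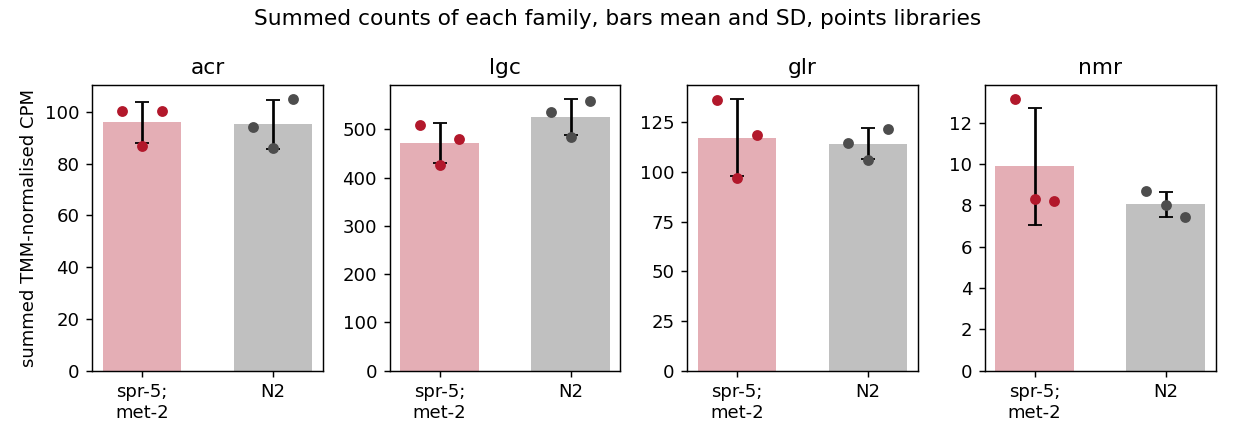
Summed TMM-normalised CPM of each family (vertical axes, from 0) in spr-5; met-2 (left bars) and N2 (right bars), with bars at the mean, error bars of 1 SD and points for the 3 libraries of each group. The lgc sum averaged 471 CPM in spr-5; met-2 and 526 CPM in N2, and the groups overlap in all 4 families.

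To compare levels between genes, counts were divided by exonic length. On this scale of CPM per kilobase, lgc genes held the first 8 places in N2. The gene lgc-34 was at 29.4 ± 2.87 CPM per kilobase in the double mutant and 33.2 ± 4.68 in N2 (SD, n = 3), and lgc-39 at 28.3 ± 2.62 in the double mutant and 29.4 ± 1.64 in N2, values that differ by less than their spread. Both genes that fell were in this upper range, with lgc-4 at 12.6 ± 2.42 in the double mutant and 19.7 ± 3.01 in N2 and lgc-55 at 11.3 ± 1.48 in the double mutant and 17.2 ± 1.86 in N2. The highest gene of another family was glr-5, at 15.3 ± 3.39 CPM per kilobase in the double mutant and 13.5 ± 1.36 in N2. The highest acr gene by N2 level was acr-25, at 6.34 ± 0.841 in the double mutant and 7.70 ± 1.27 in N2, while acr-18 was at 9.07 ± 0.394 in the double mutant and 7.18 ± 0.212 in N2. The order of these acr genes in N2 is not resolved beyond the spread of acr-25. The nmr-1 and nmr-2 genes lay lower, at 1.47 ± 0.302 and 1.72 ± 0.612 CPM per kilobase in the double mutant and 1.49 ± 0.0781 and 1.09 ± 0.121 in N2. Of the 2 nmr-2 records 1 was at 0, so its level may be incomplete.

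**Figure D5:**
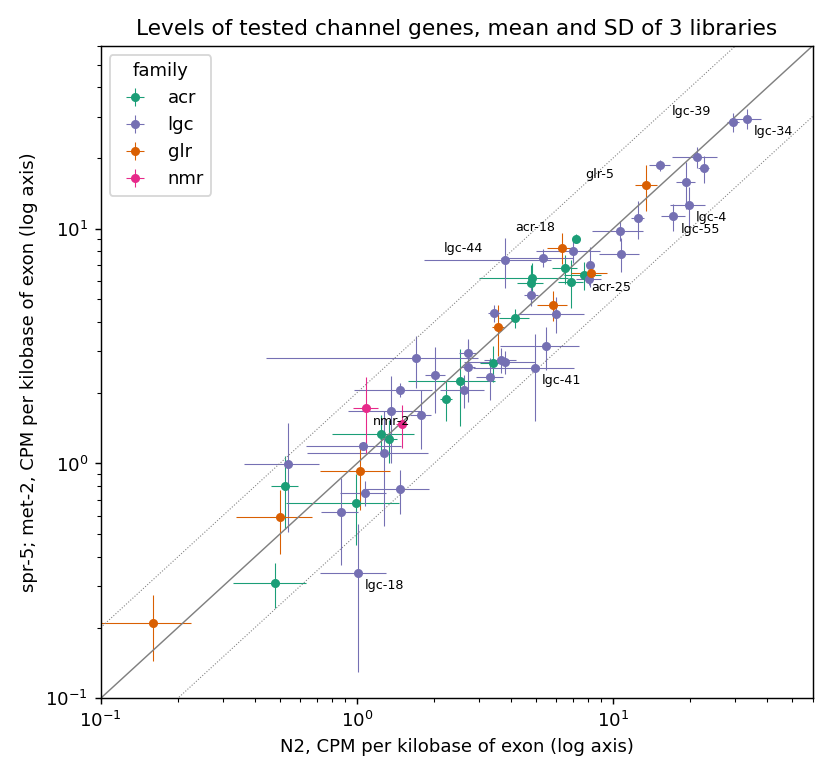
Level of each tested channel gene in CPM per kilobase of exon in spr-5; met-2 (vertical, log axis) against N2 (horizontal, log axis), as mean and SD of 3 libraries and coloured by family; the solid line marks equal levels and the dotted lines 2-fold. Genes lie near the solid line over the whole range, with lgc-18 under the lower dotted line.

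Cys-loop channel genes with other names were counted in the same fit. For this list and the next, only the record with the highest mean was used for each gene. Levels, numbers tested and medians may thus be incomplete for genes with several records, such as unc-49 with 7. Summing records per gene gave the same numbers rising and falling in both lists. Of 25 other-named channel genes listed, 22 had a record and 19 were tested, of which 1 rose and 1 fell. The median was -0.07 on the log2 scale. Over all tested records 14.3% rose and 11.7% fell. With the replicate block gab-1, for a GABA-gated chloride channel subunit, also fell (-0.57 ± 0.14, SE, edgeR adjusted p = 0.0151). The gene glc-1, for a glutamate-gated chloride channel subunit bound by ivermectin, was at 54.6, 38.1 and 41.5 CPM in the double mutant and 75.8, 79.8 and 92.9 CPM in N2, with no overlap (log2 fold change -0.89 ± 0.16, SE, edgeR adjusted p = 0.00658). It was called under every alternative run. The gene unc-63, for a subunit of the levamisole receptor of body wall muscle, was at 17.9, 23.3 and 19.4 CPM in the double mutant and 13.6, 13.3 and 14.2 CPM in N2 (0.56 ± 0.16, edgeR adjusted p = 0.0335). That call was lost without double mutant replicate 2 (edgeR adjusted p = 0.131) or 3 (0.104) and without any one N2 library (0.0606, 0.0985 and 0.0655 for replicates 1, 2 and 3), and with no count filter (0.0513). Its partners unc-29 (0.09 ± 0.26) and unc-38 (0.18 ± 0.24) did not pass, and lev-1 was at 1.16 ± 0.37 (edgeR adjusted p = 0.0535) from levels of 0.958 ± 0.249 CPM in the double mutant and 0.427 ± 0.0639 CPM in N2 (SD, n = 3). For lev-1, only the double mutant libraries all reached the count minimum, so its direction was partly fixed by the count filter. It also has several records, so its level may be incomplete.

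Of 22 genes for assembly, clustering and accessory proteins of these receptors, 20 had a record and 14 were tested. At 0 were eat-18 and stg-2. Also at 0 were nra-2, nra-4 and usp-46, which have several records each, so their 0 says nothing of expression. Of the 14, 0 rose and 3 fell, with a median log2 fold change of -0.12. Of all tested records 14.3% rose and 11.7% fell. The 3 are named after their values were seen. The gene lev-10, for a transmembrane protein that clusters levamisole receptors at the neuromuscular junction, was at 29.5, 28.98 and 36.3 CPM in the double mutant and 56.8, 61.3 and 69.8 CPM in N2 (log2 fold change -0.99 ± 0.14, SE, edgeR adjusted p = 0.00224), and it was called under every alternative run. The gene oig-4, for a secreted protein of the same clustering complex, was at 10.5, 10.1 and 9.92 CPM in the double mutant and 12.4, 17.3 and 23.6 CPM in N2 (-0.80 ± 0.24, edgeR adjusted p = 0.0420). The gene grld-1, for an RNA-binding protein that promotes GLR-1 production, was at 18.8, 20.0 and 21.1 CPM in the double mutant and 27.6, 29.6 and 30.6 CPM in N2 (-0.55 ± 0.13, edgeR adjusted p = 0.0173). The oig-4 call was lost without any one double mutant library (edgeR adjusted p = 0.0802, 0.116 and 0.134 for replicates 1, 2 and 3), without N2 replicate 2 or 3 (0.0900 and 0.0939) and with limma voom (0.0527). The grld-1 call was lost without any one double mutant library (0.0544, 0.0595 and 0.0664) and without N2 replicate 2 (0.0531), and both were lost with library size only (edgeR adjusted p = 0.163 for oig-4 and 0.200 for grld-1). The third protein of the clustering complex, encoded by lev-9, was at -0.47 ± 0.17 (edgeR adjusted p = 0.0880), and fell in the fit with the replicate block (edgeR adjusted p = 0.0228). The receptor chaperone gene ric-3 was at -0.16 ± 0.11 (edgeR adjusted p = 0.298).

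Markers of the cells that use these channels were set beside them. For each gene only the record with the highest mean was used, so genes with several records may be understated. The sums rest largely on few genes. In the double mutant and N2, egl-21 averaged 1090 and 1360 CPM, ida-1 937 and 1091, unc-54 9189 and 9664, and asp-1 5510 and 9065. Over all tested records 14.3% rose and 11.7% fell. Of 17 neuronal markers with a record, 13 were tested, 1 rose (ric-19) and 1 fell (unc-10), and their summed level was 2332 to 2745 CPM in double mutant libraries and 2486 to 3371 CPM in N2. The neuronal markers rgef-1, unc-11, unc-18 and unc-31, each with several records, were at 0. Of 11 body wall muscle markers with a record, 8 were tested and 2 fell (pat-10 and unc-27), at a summed 11591 to 13719 CPM in the double mutant and 11566 to 18822 CPM in N2. Of 5 pharyngeal muscle markers, 4 were tested and 2 fell (tnc-2 and tni-4), at 9486 to 12585 CPM in the double mutant and 12960 to 18893 CPM in N2. Of 7 intestinal markers, all tested, 2 rose (elt-2 and ifb-2) and 3 fell (asp-1, ges-1 and mtl-2), at 6452 to 7728 CPM in the double mutant and 9231 to 11202 CPM in N2. Of 8 epidermal markers 4 were tested and none was called, with sums of 43.8 to 335 CPM in the double mutant and 9.39 to 234 CPM in N2. The epidermal markers elt-1 and elt-3, each with several records, were at 0. With the replicate block, rab-3 also fell among neuronal markers (edgeR adjusted p = 0.0253), unc-60 (0.0155) and unc-87 (0.0367) fell and unc-45 (0.0139) rose among body wall muscle markers, and dpy-7 (0.0337) and dpy-10 (0.0366) rose among epidermal ones. The part of these markers in the falls of lgc-55 and lgc-4 was not tested.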

How the data were processed

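The authors deposited whole-number counts per RefSeq transcript record for 6 libraries, not normalized; reads were aligned with HISAT2, per the file headers. The submitters' processing notes name FastQC, Trimmomatic, featureCounts, DESeq2 2.11.40.2 and the build ce10, with no role or order. For the strand setting and shared reads, nothing is given in the sources used here. Per the file headers, the deposited comparison table lists for each record a mean signal (base mean), the log2 fold change with its standard error, a Wald score, and raw and adjusted p-values.

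Records were named by RefSeq transcript identifiers (assembly WBcel235), and exonic lengths came from Ensembl release 115 of WBcel235. Builds differ, so no coordinates are given. Records were kept by filterByExpr (minimum count 10, minimum total count 15), scaled by TMM and tested with edgeR 4.0.16 (R 4.3.3, quasi-likelihood, two-sided, group only), p-values being adjusted by Benjamini-Hochberg across the 14557 tested records (threshold 0.05). SEs are the log2 fold change divided by the square root of F. The procedure was tested on simulated data.

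Members and lists were chosen with earlier results of these data known. Named are all called members, the 3 most abundant of each family and called other-named channels; all other genes named were chosen after their values were seen. Titles give the replicate numbers. Deviations of same-numbered libraries from their group means correlated over all tested records at 0.51, 0.40 and 0.24. The numbers were therefore taken as pairing the libraries. The main fit, with group only, does not use this pairing, so its SEs, intervals and p-values ignore it, and the block's calls are given beside them. Alternatives were library size only, DESeq2 size factors in edgeR, no count filter, at least 1 CPM in 3 libraries, DESeq2 1.42.0, limma voom (limma 3.58.1), the replicate block, summing records per gene and leaving out each library.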

Additional observations from a re-analysis of the deposited data

How the results depend on the processing

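Calls in the acr, glr and nmr families stayed at 0 in each direction under all 14 alternatives. For lgc, the number rising (0) was 1 with no count filter and with DESeq2, 2 with the replicate block and 0 to 2 when a library was left out. The number falling (2) was 0 with library size only, 6 with the replicate block and 0 to 2 when a library was left out. It was 3 with no count filter, with DESeq2 and with limma voom, lgc-18 being the added gene. No ggr record existed to be counted. Over all records, the number falling (1698) was 828 with library size only and 800 to 1803 when a library was left out. For other-named Cys-loop channels, the number rising (1) was 2 with library size only, 0 with no count filter and 0 to 1 when a library was left out, and the number falling (1) was 2 with DESeq2 and with the replicate block. For assembly and accessory genes, the number falling (3) was 4 with the replicate block, 2 with limma voom and 1 with library size only. It was 1 to 3 when a library was left out.

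Log2 fold changes that turned sign had been near 0: acr-2 (0.021), lgc-39 (0.165), lgc-34 (0.033) and nmr-1 (0.198) with library size only, and when a library was left out lgc-39 ran from -0.13 to 0.0087 and nmr-1 from -0.21 to 0.061 (0.058 in the other case of a turned sign). Library size only moved the all-record median to 0.21, against -0.01, which is more than these values; for the libraries left out the cause was not tested. Of 335 single-gene values under alternatives, 288 kept their direction and side of the threshold. Of the tested channel genes 41 of 64 averaged under 10 CPM, and 14 under 2 CPM. Over all records within the same range of mean CPM 24.4% were called, and the median SE was 0.23 for the channel records and 0.24 for all. Beside the calls given in the report, the replicate block changed no other call among the channel genes and the lists.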
